A study of Mus musculus with 73 samples.

Results

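Platr20, Gm40040, Gm3134 and LOC108167542 are 4 noncoding or uncharacterised transcripts of the mouse that were read almost only from the father's chromosome in wild-type extraembryonic ectoderm (ExE). They were taken by name from a table of 30546 genes. They were chosen by their maternal share and read counts in wild-type ExE and by their change in the libraries labelled G9a-Glp, Rnf2 or Eed. Their values in the ExE comparisons with those libraries are therefore given as a description, with no test. RNA was sequenced from the ExE and the epiblast of single embryos at embryonic day 6.5, in 72 libraries of 12 groups. The wild-type BDF1xCAST group had a BDF1 mother and CAST sperm, delivered by injection into the egg, and held 7 libraries per tissue. The wild-type CASTxBDF1 group, from natural mating of CAST females with BDF1 males, held 4 per tissue. The other groups were BDF1xCAST embryos injected at the zygote stage with Cas9 mRNA and guide RNAs, so each embryo was edited on its own and cells of an embryo can differ. They were labelled Dnmt1 (3 ExE and 3 epiblast libraries), G9a-Glp (8 and 6), Rnf2 (5 and 6) and Eed (10 and 9). All BDF1xCAST embryos were carried by CD-1 foster females. Because the knockouts exist in this cross alone, maternal reads are always BDF1 reads there.

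Genomic imprinting is the expression of a gene from the allele of only a single parent. At most imprinted genes the mark is DNA methylation laid down in a germ cell and copied by Dnmt1, the maintenance DNA methyltransferase. Noncanonical imprinting, known from ExE and placenta, starts instead from the histone mark H3K27me3 on the egg's allele. G9a and Glp (genes Ehmt2 and Ehmt1) are the enzymes that dimethylate lysine 9 of histone H3, Eed is a core subunit of the Polycomb complex PRC2, which writes H3K27me3, and Rnf2 is the ubiquitin ligase of the Polycomb complex PRC1.

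The 4 names stand for 3 places in the mm10 genome. Platr20 (pluripotency-associated transcript 20), annotated as a lncRNA, lies at chr11:51189833-51220418, and no other gene of the table overlaps it. The nearest gene on the list of known imprinted genes used here was Commd1, 28.2 Mb away. Gm40040, also a lncRNA, lies at chr3:41474907-41484004, 71.7 kb from Jade1, a known noncanonically imprinted gene. Gm3134 (lncRNA, synonym Sall1os) spans chr8:89039976-89071021 and overlaps Sall1, a developmental transcription factor gene. LOC108167542 (chr8:89045693-89052979) lies wholly inside Gm3134. The nearest listed imprinted gene to this pair was Gab1, 8.16 Mb away.

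The start regions of Platr20 and Gm3134 are shown because their base composition differs between the 2 genes for which RefSeq (GRCm38.p6) gives a window. Each window runs from 250 bases before to 50 bases after the annotated start, 5′ to 3′ on the gene's strand, and capitals mark CG dinucleotides, the sites of DNA methylation. The Platr20 window is chr11:51220369-51220668 on the minus strand, and the Gm3134 window is chr8:89040993-89041292 on the plus strand.
Platr20: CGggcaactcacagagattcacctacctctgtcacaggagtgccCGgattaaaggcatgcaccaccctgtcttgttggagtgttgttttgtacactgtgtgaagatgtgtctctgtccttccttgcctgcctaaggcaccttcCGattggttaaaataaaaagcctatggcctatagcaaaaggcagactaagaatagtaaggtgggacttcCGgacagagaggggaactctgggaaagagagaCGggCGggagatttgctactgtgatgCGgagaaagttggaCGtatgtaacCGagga
Gm3134: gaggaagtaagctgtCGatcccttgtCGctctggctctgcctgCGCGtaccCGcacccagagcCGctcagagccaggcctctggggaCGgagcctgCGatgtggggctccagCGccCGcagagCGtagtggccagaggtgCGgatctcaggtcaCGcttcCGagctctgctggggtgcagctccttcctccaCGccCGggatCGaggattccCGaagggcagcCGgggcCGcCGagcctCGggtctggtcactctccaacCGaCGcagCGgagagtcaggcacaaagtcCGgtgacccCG
The Platr20 window held 9 CG dinucleotides at 49.7% GC. The Gm3134 window held 27 at 68.0% GC, and 84.5% of the 32851 windows of this length had fewer, with a median of 7. Among 6 short motifs searched on both strands, chosen after the sequences were seen, the Platr20 window held AATAAA (in 19.6% of all windows), CCAAT (37.4%), GGGCGG (35.7%) and TTCCGG (14.9%). Neither window held TATAAA (13.6%) or GCGCGC (13.6%), and the Gm3134 window held none of the 6. No methylation values were analysed here.

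Every read counted in the table carries a parental allele, and levels are given as CPM, the count of the gene scaled to a common library total, not per length, so they compare libraries and not genes. Library totals ran from 1141414 to 17653087 reads. Reads were not tagged with molecular identifiers, so intervals and limits below cover counting error only. Shares of maternal reads are means over libraries with at least 10 reads of the gene. In comparisons with the knockout libraries, wild type means the BDF1xCAST group unless CASTxBDF1 is named. The ExE marker list (9 genes) summed to 617 to 1161 CPM in wild-type BDF1xCAST ExE and 42.3 to 261 in the matching epiblast. Dnmt1 mRNA was at 47.9, 34.5 and 5.2 CPM in ExE replicates 1, 2 and 3 of the libraries labelled Dnmt1, against 35.7 to 62.2 in wild type, and Rnf2 mRNA in the libraries labelled Rnf2 ExE (21.9 to 62.7) lay within the wild-type range (21.4 to 65.9). The mRNA level therefore does not check the labels of Dnmt1 ExE replicates 1 and 2 or of the Rnf2 ExE libraries. In epiblast Dnmt1 mRNA was at 4.7 to 11.4 CPM in the Dnmt1 libraries against 21.9 to 40.4 in wild type, and Rnf2 mRNA at 19.3 to 33.4 in the Rnf2 libraries against 32.8 to 56.6. In G9a-Glp libraries both targets overlapped wild type: Ehmt2 was at 1.6 to 7.1 CPM against 4.3 to 23.3 in ExE and at 1.13 to 5.50 against 0.396 to 6.27 in epiblast. Ehmt1 was at 4.40 to 26.1 CPM against 15.3 to 40.6 in ExE and at 4.14 to 50.5 against 14.5 to 39.8 in epiblast, so the mRNA level does not check the G9a-Glp epiblast label. Eed mRNA was at 3.9 to 17.4 in Eed ExE against 103.4 to 248.3. Fewer cells of a type and less RNA per cell cannot be told apart in these bulk samples.

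In wild-type ExE the 4 transcripts were paternal in both crosses. Of BDF1xCAST Platr20 reads, 13 of 272 were maternal, and of CASTxBDF1 reads, 10 of 120. The mean maternal share of Platr20 was 5.06% ± 6.73 (SD, n = 7) with the CAST father and 9.14% ± 13.2 (SD, n = 4) with the BDF1 father, and the highest library of each cross was at 15.8% and 28.0%. The paternal allele was thus CAST in the first cross and BDF1 in the second, so the bias followed the parent and not the strain. For Gm40040 the shares were 9.80% ± 12.2 (SD, n = 6) and 16.6% ± 11.2 (SD, n = 4). For Gm3134, the strongest of them, they were 1.71% ± 3.73 (SD, n = 7) and 2.85% ± 2.43 (SD, n = 4), with 5 maternal reads of 405 and 6 of 192. LOC108167542 gave 1.73% ± 3.73 and 2.94% ± 2.50, and in BDF1xCAST ExE 398 of the 405 Gm3134 reads (98.3%) were also LOC108167542 reads. The table holds these as separate genes, but in ExE they are nearly the same reads and count once. Over all 8654 genes tested in wild-type ExE, 0.347% were called paternally expressed. The members are among the genes this comparison chose.

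**Figure D1:**
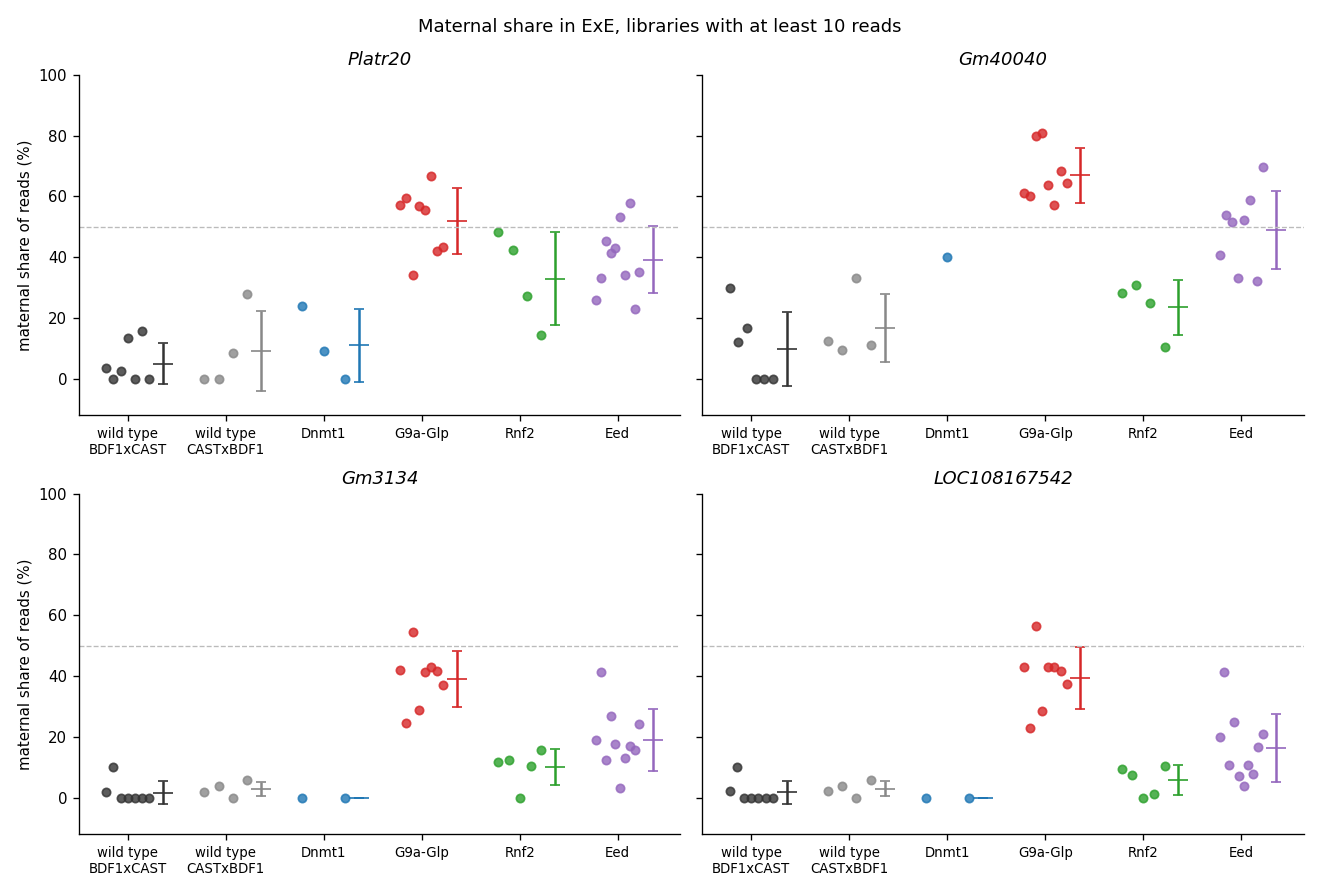
Maternal share of reads (vertical axis, percent) in each ExE library with at least 10 reads of the gene, by group, with mean and SD beside the points. In wild-type BDF1xCAST no library exceeds 30.0%, and the 8 G9a-Glp libraries lie above the wild-type libraries of that cross for every gene.

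In the libraries labelled G9a-Glp ExE the maternal allele was read from all 4 transcripts. Platr20 reads were 51.9% ± 10.9 maternal (SD, n = 8), ranging from 34.0% to 66.7%. Gm40040 stood at 66.9% ± 8.95 (SD, n = 8), with every library above 50% and a range of 57.1% to 80.9%. Gm3134 stood at 39.1% ± 9.17 (SD, n = 8) and ranged from 24.5% to 54.3%. All 8 libraries were above every wild-type BDF1xCAST library for each gene. In this comparison 0.618% of 8731 genes passed toward the maternal allele, and the rule used the contrast. The visceral endoderm markers (10 genes, none at 0 in every G9a-Glp library) summed to 20.3 to 139 CPM in these libraries against 12.2 to 28.6 in wild type. The ectoplacental cone and giant cell markers (8 genes, of which Prl3d1, Ctsj, Ctsq and Prl4a1 were at 0) summed to 20.9 to 2181 CPM against 7.15 to 1132. Their part in the shares and levels was not tested.

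The levels behind these shares differed between the loci. Gm40040 was 3.23-fold higher in total, at 16.6 ± 3.85 CPM (SD, n = 8) against 5.15 ± 3.38 (SD, n = 7), and 7 of 8 libraries exceeded the highest wild-type library. Its paternal level hardly differed, at 5.30 ± 1.33 CPM against 4.56 ± 2.86, while its maternal level was 11.3 ± 3.69 against 0.584 ± 0.817. Gm3134 was 30.4 ± 12.1 CPM against 20.003 ± 6.65, with a paternal level of 18.3 ± 7.01 against 19.8 ± 6.90. Platr20 kept nearly its total, at 16.7 ± 3.80 CPM against 13.4 ± 3.43. Its paternal level was 62.6% of wild type, below every wild-type BDF1xCAST library in 6 of 8, and its maternal level was 8.71 ± 2.92 CPM against 0.644 ± 0.884. In wild-type CASTxBDF1 the paternal level of Platr20 was 7.68 ± 2.70 CPM. Paternal levels of Gm40040 and Gm3134 thus differed from wild type by less than the SD, while that of Platr20 was lower by more.

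**Figure D2:**
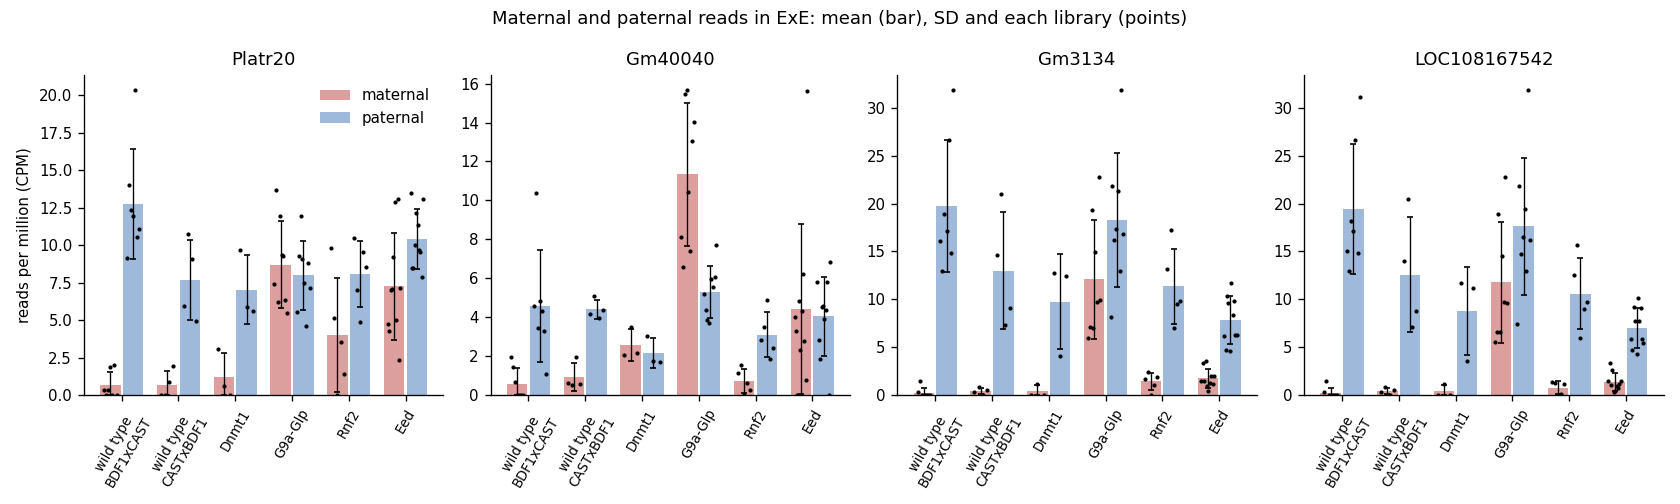
Maternal (red) and paternal (blue) CPM in ExE, as the mean over libraries (bars), SD (lines, stopped at 0) and each library (dots), by group; vertical scales differ between panels. Paternal Gm40040 reads average 4.56 in wild-type BDF1xCAST and 5.30 in G9a-Glp, while maternal reads average 0.584 and 11.3.

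In Eed ExE the 3 loci came apart. Platr20 was 39.2% ± 11.1 maternal (SD, n = 10), and all 10 libraries lay above every wild-type BDF1xCAST library. The lowest was at 23.1%, below the highest CASTxBDF1 library (28.0%). The Platr20 total was 17.7 ± 4.49 CPM. Gm40040 was 49.1% ± 12.8 maternal (SD, n = 8), again with all 8 countable libraries above wild-type BDF1xCAST, at 8.46 ± 5.91 CPM. Its lowest share was 32.4%, below the highest CASTxBDF1 library (33.3%). Gm3134 was 19.03% ± 10.1 maternal (SD, n = 10), above wild type in 9 of 10 libraries, but it was lower in total. Its 10 libraries lay between 5.57 and 13.2 CPM, median 8.95, all below the lowest wild-type BDF1xCAST library at 14.3. The wild-type CASTxBDF1 libraries lay between 7.36 and 21.8 CPM, overlapping the Eed range. The paternal level of Gm3134 was 39.5% of wild type, at 7.80 ± 2.51 CPM (SD, n = 10). Of 8959 genes, 1.22% passed toward the maternal allele in this contrast, which the rule used. In Eed ExE libraries the markers of ectoplacental cone and giant cells (8 genes, of which Prl3d1, Ctsq, Gcm1 and Prl4a1 were at 0) summed to 312 to 5402 CPM, against 7.15 to 1132 in wild type. The ExE list summed to 399 to 824 CPM. Their part in the levels was not tested.

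The shift was uneven between embryos in the libraries labelled Rnf2 ExE. Platr20 maternal reads were 96 of 199, 53 of 125, 0 of 9, 29 of 107 and 10 of 70 in replicates 2, 4, 5, 6 and 7. Replicates 2 and 4 thus neared equal expression, while replicate 7 (14.3%, Wilson interval 7.95% to 24.3%) stayed within the wild-type range. Mean shares were 33.0% ± 15.3 for Platr20 (SD, n = 4), 23.6% ± 9.05 for Gm40040 (SD, n = 4) and 10.04% ± 5.97 for Gm3134 (SD, n = 5). Shares above every wild-type BDF1xCAST library were found in 3 of 4, 1 of 4 and 4 of 5 libraries. The maternal level of Gm40040 in CPM exceeded that wild type in 0 of 5 libraries, and its paternal level was 67.9% of wild type. In replicate 5 no maternal read of any of the 4 transcripts was counted. Its 13 Gm3134 reads allow a share of up to 23.1% and its 9 Platr20 reads up to 33.3%, below the Platr20 shares of replicates 2 and 4 (Wilson intervals 41.4% to 55.2% and 34.1% to 51.2%) but not below those of replicates 6 and 7. Without it Gm3134 averaged 12.6% ± 2.35 (SD, n = 4). LOC108167542, the inner part, was less maternal, at 5.78% ± 4.82 (SD, n = 5), with 1 of 5 libraries above wild type. The reads of Gm3134 outside it were 29 maternal of 58. Sall1, which overlaps Gm3134, had 48 maternal reads of 119 in these libraries. Reads of the overlap cannot be assigned to either gene, so the Gm3134 share may hold Sall1 reads. In this contrast, which the rule used, 0.444% of 9002 genes passed toward the maternal allele.

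The libraries labelled Dnmt1 had too few reads to settle allele use at most of these genes. Platr20 maternal reads were 6 of 25, 1 of 11 and 0 of 13 in replicates 1, 2 and 3. The log2 change of the maternal to paternal ratio was 1.59 ± 1.12 (SE), and edgeR's quasi-likelihood test gave an adjusted p of 0.768 over all genes. It was -0.04 without replicate 1, the library whose Dnmt1 mRNA was within the wild-type range. The other 3 did not pass the minimum of 10 reads in 3 libraries. Gm40040 had 4 of 10, 6 of 9 and 5 of 9 maternal reads, above the highest wild-type share (30.0% in BDF1xCAST, 33.3% in CASTxBDF1) in each library. With a minimum of 5 reads, added after seeing the data, its log2 change was 3.19 ± 0.957 (SE), with an adjusted p of 0.186 by edgeR. The same fit gave 1.59 ± 1.10 for Platr20, 1.37 ± 1.71 for Gm3134 and 1.49 ± 1.73 for LOC108167542 (SE). Their adjusted p values were 0.799, 0.913 and 0.907. Gm3134 had 0 of 25, 2 of 9 and 0 of 29 maternal reads, or 2 of 63 pooled. Its replicate 2 was at 22.2%, above the highest wild-type library (10%), but on 9 reads. Of 7708 genes, 0.402% passed toward the maternal allele.

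Gm3134 fell in total in the libraries labelled Dnmt1 ExE, where 9.96% of 9749 genes were called lower. Its replicates were at 12.7, 5.3 and 12.5 CPM, all below the lowest of the 7 wild-type BDF1xCAST libraries, though CASTxBDF1 libraries ran from 7.36 to 21.8. The log2 change was -1.22 ± 0.378 (SE), adjusted p = 0.0367 by edgeR. The call ended when any replicate was left out, with adjusted p between 0.0638 and 0.153. LOC108167542 fell by 1.34 on the log2 scale (adjusted p = 0.0265), from nearly the same reads, and its call ended without replicate 2 (adjusted p = 0.117) or 3 (0.0774). Platr20 (-0.94, adjusted p = 0.0700) and Gm40040 (-0.35, adjusted p = 0.702) did not pass, though Platr20 passed without replicate 1 (adjusted p = 0.0314) and with DESeq2 (adjusted p = 0.0448). These comparisons share their wild-type libraries with the ones that chose the members.

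**Figure D3:**
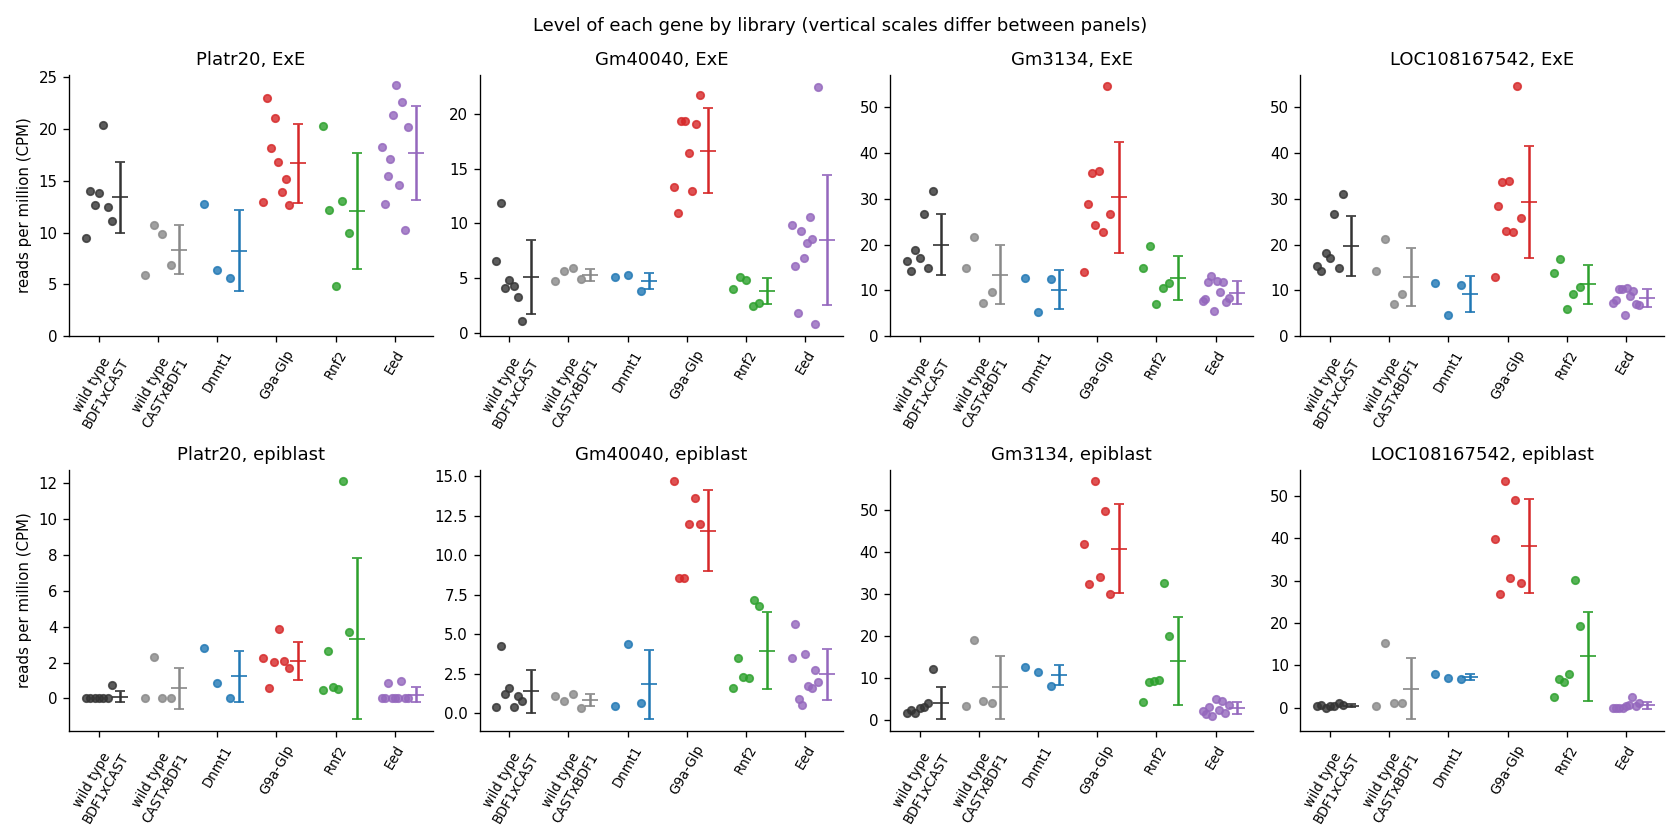
Level of each gene in CPM, per library, in ExE (top) and epiblast (bottom), with mean and SD; vertical scales differ between panels. Gm3134 in Eed ExE lies wholly below wild-type BDF1xCAST ExE, and in G9a-Glp epiblast it lies wholly above wild-type epiblast.

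Ordered by mean level in ExE, Platr20 ran from Eed and G9a-Glp through wild-type BDF1xCAST and Rnf2 to wild-type CASTxBDF1 and Dnmt1, and Gm3134 from G9a-Glp through the wild-type crosses, Rnf2 and Dnmt1 to Eed. No neighbouring groups in either order, or in that of Gm40040, were separated by more than their SDs. Between the wild-type crosses none of the 4 passed the test in ExE, where 1.06% of 9546 genes did. Platr20 was at 8.37 ± 2.32 CPM (SD, n = 4) in CASTxBDF1, a log2 difference of -0.69 ± 0.271 (SE), adjusted p = 0.304 by edgeR.

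In wild-type epiblast the transcripts were nearly silent or low. Each was higher in ExE than in the epiblast of the same embryo in 7 of 7 BDF1xCAST embryos. Because the members had to have reads in ExE to be chosen, no test is given for this. Platr20 had 1 epiblast read in all against 272 in ExE, a rate ratio of 226 with an exact 95% counting interval of 40.3 to 8965. LOC108167542 was at 0.533 ± 0.344 CPM in epiblast against 19.7 ± 6.56 in ExE. Gm3134 was at 3.98 ± 3.72 CPM, and its epiblast reads were of another kind: only 9 of 57 fell in LOC108167542. Of the 48 outside, 27 were maternal, against 0 of 7 in ExE. Thus the reads of the Gm3134 interval outside LOC108167542 came from both parents in epiblast. Sall1, which overlaps Gm3134, had 37 maternal reads of 76 there, and since the counting is not stated to use strand, reads of the overlap cannot be assigned to either gene. Gm40040 was at 1.40 ± 1.35 CPM, with 20 maternal reads of 26, 12 of them from replicate 2.

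The rule that chose the members names bias in ExE but no tissue for the change, and earlier results of these data were known. The epiblast tests of the G9a-Glp and Rnf2 libraries may therefore not be independent of that choice. In the libraries labelled G9a-Glp epiblast, Gm3134, LOC108167542 and Gm40040 rose. In this contrast 19.6% of 9562 genes that passed the filter on low counts were called higher. The filter asked for 4.04 CPM in at least 6 libraries, which 1, 0 and 1 wild-type and all 6 G9a-Glp libraries reached for Gm3134, LOC108167542 and Gm40040. They passed it only through the group where they were high, so passing is no support, and their tests are given from the fit with no filter, where 8% of 25397 genes were called higher. Gm3134 was at 41.8, 32.4, 56.7, 34.1, 49.6 and 29.9 CPM in replicates 1, 2, 3, 4, 5 and 7, against 1.68 to 12.2 in wild type. All 6 libraries were above all 7 wild-type libraries. The log2 change was 3.45 ± 0.302 (SE), adjusted p = 1.32e-12 by edgeR. LOC108167542, with 0 to 3 reads in each wild-type BDF1xCAST library, rose by 5.96 ± 0.372 (SE, log2), adjusted p = 1.4e-17 by edgeR. It held 94.4% of the Gm3134 reads, against 15.8% in wild-type BDF1xCAST. Gm40040 was at 11.6 ± 2.54 CPM (SD, n = 6), 8.23-fold over wild type, with 1 to 13 reads in each wild-type library, a log2 change of 2.84 ± 0.449 (SE) and adjusted p = 3.8e-06. Gm3134 and Gm40040 reads came from both parents, at 39.5% ± 10.8 and 57.1% ± 11.8 maternal (SD, n = 6).

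Platr20 was also called higher without the filter, but on few reads. It stayed low in G9a-Glp epiblast, at 2.10 ± 1.05 CPM (SD, n = 6), and no library reached the filter. The log2 change without the filter was 4.17 ± 1.11 (SE), adjusted p = 0.00581 by edgeR, with 0 or 1 read in each wild-type BDF1xCAST library. CASTxBDF1 epiblast replicate 2 held 6 reads. Platr20 reads in G9a-Glp epiblast were 28 maternal of 32. The pooled rate was 37.1 times that of the single BDF1xCAST wild-type read, with an exact 95% counting interval of 6.20 to 1512.

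Markers of visceral endoderm, the cell layer removed at dissection, moved with some of these levels. The list (10 genes) summed to 2456 CPM in CASTxBDF1 epiblast replicate 2, where Gm3134 was at 19.1 CPM, against 10.1 to 71 in the other 3, where it was at 3.34 to 4.51. It summed to 648 CPM in BDF1xCAST epiblast replicate 8, which had the highest wild-type Gm3134 level of that cross (12.2 CPM). But it summed to 147 CPM in replicate 6 of that cross, with Gm3134 at 3.16 CPM, and to 20.3 CPM in replicate 7, with Gm3134 at 3.99 CPM. In G9a-Glp epiblast it summed to 13.2 to 313 CPM. With only the 3 G9a-Glp libraries at the low end (13.2, 15.9 and 13.7 CPM), the log2 changes were 3.24 for Gm3134, 5.79 for LOC108167542 and 3.02 for Gm40040 in the filtered fit. This fit was not planned beforehand. All 6 G9a-Glp libraries lay above every wild-type BDF1xCAST library for the 3 genes, which passed the filter only through them. Any 3 of the 6 would therefore show a rise. The part of endoderm in these levels was not tested.

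In the libraries labelled Rnf2 epiblast Gm3134 also rose, where 18.0% of 10134 filtered genes and 7.38% of 28442 unfiltered genes were called higher. Its libraries lay at 4.19, 8.9, 9.3, 9.4, 32.6 and 19.9 CPM in replicates 1, 2, 3, 5, 6 and 8, and 2 of 6 exceeded the highest wild-type library. Again it passed the filter (3.30 CPM in 6 libraries) only through the Rnf2 group, with 2 wild-type libraries reaching it. The log2 change without the filter was 2.003 ± 0.413 (SE), adjusted p = 0.000563 by edgeR, and in the filtered fit it was 1.92, or 1.51 without replicate 6. Reads were 40.8% ± 9.86 maternal (SD, n = 6). LOC108167542, below the count filter, was at 2.61 to 30.1 CPM and above wild-type BDF1xCAST (0 to 1.09) in 6 of 6 libraries. In wild-type CASTxBDF1 epiblast it ran from 0.371 to 15.25 CPM. Without the filter its log2 change was 4.455 ± 0.570 (SE), adjusted p = 1.926e-07 by edgeR. In that fit Platr20, with 0 or 1 read in each wild-type BDF1xCAST library, rose by 5.303 ± 1.134 (SE, log2), adjusted p = 0.0008855 by edgeR. Only 3 of its 6 Rnf2 libraries exceeded the highest BDF1xCAST library (0.762 CPM), and wild-type CASTxBDF1 replicate 2 was at 2.29 CPM. Gm40040 did not pass (log2 change 1.41, adjusted p = 0.139). Replicate 6 was also the highest for Platr20, at 12.1 CPM with 67 maternal reads of 67, against 0.453 to 3.69 CPM in the other 5. Its visceral endoderm markers summed to 91.7 CPM, against 21.5 to 35.3 in the other 5, and their part in these levels was not tested.

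In the libraries labelled Dnmt1 epiblast, LOC108167542 rose, where 6.94% of 10248 filtered genes and 2.81% of 24548 unfiltered genes were called higher. It was at 8.0, 7.0 and 6.7 CPM, all above the wild-type BDF1xCAST maximum of 1.09, though CASTxBDF1 replicate 2 was at 15.25. It passed the filter only through the 3 Dnmt1 libraries. Without the filter the log2 change was 3.41 ± 0.865 (SE) and the adjusted p 0.00922 by edgeR. Gm3134 was at 12.7, 11.4 and 8.1 CPM and did not pass (log2 change without the filter 1.33, adjusted p = 0.189). Gm3134 too passed the filter only through these 3 libraries, with 1 wild-type library reaching it. In the filtered fit its change was 1.32. It was 1.77 in a fit, not planned beforehand, without wild-type replicate 8, the library with the high endoderm sum. ExE markers summed to 106 to 280 CPM in Dnmt1 epiblast against 42.3 to 261 in wild type, with Cdx2, Esx1 and Wnt7b at 0, and the part of residual ExE was not tested. In Eed epiblast the 4 transcripts were low: Gm3134 was at 2.75 ± 1.41 CPM, LOC108167542 at 0.571 ± 0.859, Gm40040 at 2.49 ± 1.61 and Platr20 at 0.207 ± 0.412 (SD, n = 9).

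Gm40040 lies next to a run of paternally read genes on its Jade1 side. Platr4, a lncRNA 3.68 kb away, was 13.03% ± 4.92 maternal in wild-type ExE (SD, n = 7) and 52.5% ± 4.87 in G9a-Glp ExE (SD, n = 8), a log2 change of 2.87 ± 0.234 (SE), adjusted p = 4.53e-09 by edgeR. 2400006E01Rik, 16.9 kb away, went from 2.15% ± 1.22 to 30.2% ± 10.6, and the share of Jade1 was 5.44% ± 1.72 and, in G9a-Glp ExE, 46.6% ± 3.47. In Rnf2 ExE these 3 stayed at 15.0%, 3.02% and 9.79% and none passed the test. On the other side, Pgrmc2 (392 kb) and Larp1b (435 kb) were read from both parents in wild type, at 50.8% ± 13.3 and 46.9% ± 10.1 maternal (SD, n = 7).

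The genes measured around Platr20 by the neighbour rule were not paternally read in both crosses. Clk4, 42.7 kb away, was 58.5% ± 3.66 maternal in BDF1xCAST (SD, n = 7) and 36.8% ± 1.19 in CASTxBDF1 (SD, n = 4), with more BDF1 reads in both crosses. Phykpl, 364 kb away, was at 54.6% ± 1.96. Zfp354a on the other side was at 63.9% ± 11.6 and 13.3% ± 3.95 in the 2 crosses, again with more BDF1 reads in both, though not to an equal degree. Gm12569, beside Platr20, was too low for the neighbour rule, with 2 maternal reads of 36 in BDF1xCAST and 3 of 12 in CASTxBDF1 wild type, 37 of 74 in G9a-Glp and 64 of 135 in Eed ExE. It was named after its values were seen. Gm3134 had no measured neighbour within 500 kb. Sall1, overlapping it, had 0 maternal reads of 17 in BDF1xCAST wild-type ExE, which allows a share of up to 17.6%, 2 of 14 in CASTxBDF1, and 21 of 65, 48 of 119 and 34 of 90 in G9a-Glp, Rnf2 and Eed ExE.

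**Figure D4:**
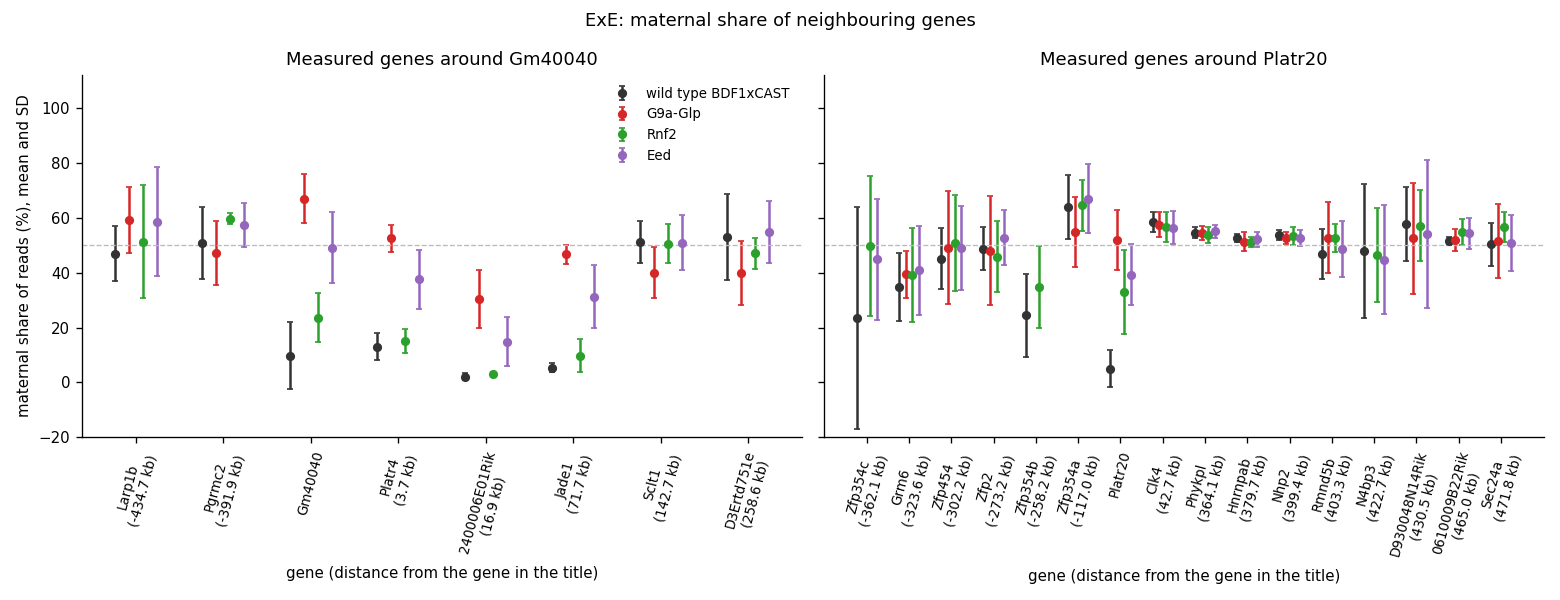
Mean maternal share (percent, with SD) in ExE of Gm40040 (left) and Platr20 (right) and the measured genes within 500 kb, in order along the chromosome with the distance in kb, where at least 3 libraries had 10 reads. Platr4, 2400006E01Rik and Jade1 are low in wild type with Gm40040, while near Platr20 the wild-type BDF1xCAST means of Clk4, Phykpl and Zfp354a are 58.5%, 54.6% and 63.9%.

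The noncanonical list (7 autosomal genes: Sfmbt2, Gab1, Jade1, Smoc1, Slc38a4, E2f3 and Gm13261) gives the same comparisons for known genes. Toward the maternal allele in ExE, 6 of 7 passed in the G9a-Glp libraries, 6 of 7 in Eed, 3 of 7 in Rnf2 and 4 of 6 tested in the Dnmt1 libraries, and none passed toward the paternal allele. Their median log2 changes were 5.51, 3.90, 2.78 and 3.18, against -0.0091 to -0.0036 over all genes tested.

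Across the 37 ExE libraries, the levels most like that of Platr20 by Spearman correlation of log2(CPM + 1), among 8972 genes averaging at least 5 CPM, were those of Map1b (0.68), Ifitm2 (0.67) and Fam168a (0.65). For Gm40040 they were Sohlh2 (0.78), Platr25 (0.76) and LOC108167344 (0.74), and for Gm3134 they were Gm40003 (0.71), Nhp2 (0.70) and Gm32885 (0.69). For LOC108167542 they were Gm40003 (0.72), Nhp2 (0.72) and Dis3 (0.72). These libraries share their groups and differ in depth, so the values only describe. Between the loci the correlations were lower, at 0.47 for Platr20 with Gm40040, 0.22 for Platr20 with Gm3134 and 0.25 for Gm40040 with Gm3134.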

How the data were processed

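Full-length cDNA (SMART-Seq) was made from dissected tissue of single mouse embryos and sequenced in read pairs, per the labels' protocols. The submitters' processing notes name STAR 2.5.0, HTSeq and mm10, without their roles. Per gene and library, the authors deposited the count of reads carrying an allele, an allelic ratio (CAST share minus 0.5) and a score (a signed -log10 binomial p, per its values). Allele counts were recovered from these: 99.9985% of 711826 scored values matched within 0.002, and 3823 values at the score limit were set from the ratio. Deposited starts count from 0 and are printed from 1.

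Computed here: CPM, maternal shares, and tests with edgeR 4.0.16 in R 4.3.3 (quasi-likelihood; Benjamini-Hochberg over all genes tested, threshold 0.05). Allelic tests compared maternal and paternal counts with library terms, needing 10 reads in 3 libraries of each group, X excluded; level tests used TMM and filterByExpr. In epiblast the members passed that filter only through a knockout group or not at all, so their level tests are printed from a fit with no filter. DESeq2 1.42.0 and limma 3.58.1 served as alternatives. Scripts were tested on simulated data.

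Members and gene lists were chosen with earlier results of these data known. Named genes were the members, targeted genes, overlapping genes, up to 2 measured neighbours per side within 500 kb, the nearest listed imprinted gene, and the 3 most alike in level. Embryo numbers tie the 2 tissues of the same wild-type embryo, per the labels: over 7536 genes, deviations of same-numbered libraries correlated at 0.04 to 0.51, over 0.1 in 6 of 7 embryos. The allelic fits in epiblast were not used, as wild-type epiblast held too few reads of the members. Libraries of a group are separate embryos. A bisulfite sample was not analysed here.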

Additional observations from a re-analysis of the deposited data

Results flagged for a closer look

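Of 66 sets of 4 to 10 libraries examined, 13 had a library far from the others by Dixon's test. Chance alone would give about 1 in 20 for normally distributed values, but some sets are counts near 0. A set with reads in only 1 library is always flagged. The sets also share libraries, and the overlapping pair shares reads. Platr20 was at 12.1 CPM in Rnf2 epiblast replicate 6 (others 0.453 to 3.69), at 20.3 CPM in wild-type BDF1xCAST ExE replicate 6 (9.50 to 13.98), at 0.762 CPM in BDF1xCAST epiblast replicate 8 and at 2.29 CPM in CASTxBDF1 epiblast replicate 2, with 0 in all others of those last 2 groups. Gm40040 was at 22.5 CPM in Eed ExE replicate 10 (0.786 to 10.6) and at 4.29 CPM in BDF1xCAST epiblast replicate 2 (0.396 to 1.61), and its maternal share was 33.3% in CASTxBDF1 ExE replicate 3 (9.52% to 12.5%). Gm3134 was at 12.2 CPM in BDF1xCAST epiblast replicate 8 (1.68 to 3.99) and at 19.1 CPM in CASTxBDF1 epiblast replicate 2 (3.34 to 4.51). LOC108167542 was at 15.3 CPM in that last library (0.371 to 1.23) and at 2.60 CPM in Eed epiblast replicate 8 (0 to 1.20). Maternal shares of Gm3134 and LOC108167542 were 10% in BDF1xCAST ExE replicate 2, on 4 maternal reads of 40.

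Levels relative to wild type lay on opposite sides in the tissues, in every library against the wild-type mean; these differences were not tested. In the libraries labelled Dnmt1, Gm3134 averaged 50.8% of wild type in ExE and 269% in epiblast, and LOC108167542 46.8% and 1356%. In the libraries labelled Rnf2, Gm3134 averaged 63.9% and 353%, LOC108167542 57.7% and 2281%, and Gm40040 74.1% and 282%.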

How the results depend on the processing

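The members called in G9a-Glp, Rnf2 and Dnmt1 epiblast passed the count filter only through those groups or did not pass it. The alternatives that keep the filter therefore say little of their stability. Without it the calls of the members that passed were kept. The Dnmt1 ExE calls of Gm3134 and LOC108167542 rest on 3 libraries: 4 of 7 and 5 of 7 alternatives kept them. The Platr20 allelic change in Dnmt1 ExE ranged from -0.043 to 2.15 (log2) over fits without a replicate, with the sign turned without replicate 1. Counts over all genes moved by over 1.5 times as follows, and the cause was not tested except that left-out fits hold fewer libraries. Imprinted calls in wild-type ExE (43) were 28 with a minimum of 50 reads. Allelic calls with limma on log ratios were 15 against 66 for Dnmt1, 39 against 96 for G9a-Glp, 15 against 82 for Rnf2 and 150 against 237 for Eed. Leaving out a replicate gave 27 to 39 allelic calls for Dnmt1 ExE and 50 to 81 for Rnf2 ExE, 603 to 1047 level calls against 1804 for Dnmt1 ExE, 671 to 2447 against 1445 for Dnmt1 epiblast (the highest without wild-type replicate 8) and 38 to 72 against 101 between the wild-type crosses, where DESeq2 gave 252. Embryo numbers shared by knockout and wild-type libraries are only names, and their deviations correlated at -0.39 to 0.36; with the replicate block, allelic calls for Rnf2 ExE were 26 and level calls for Rnf2 epiblast 1125 against 3144, and the Gm40040 difference between crosses turned from 0.05 to -0.25 (log2), not called in either fit. Low depth limits the allele use of all 4 transcripts in wild-type and Eed epiblast.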
